A study of Drosophila melanogaster with 3 samples.

Results

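The 10 heat shock and chaperone genes described here are Hsf, Hsp83, Hsp22, Hsp23, Hsp26, Hsp27, Hsp60A, Hsc70-3, Hsc70-4 and Hsc70-5, out of 13945 annotated protein-coding genes of Drosophila melanogaster. They were chosen by name for their roles, but with earlier results of these data known. Their values beside those of all genes are therefore a description and no test of enrichment. Each was searched for peaks of a chromatin immunoprecipitation and sequencing (ChIP-seq) experiment whose summit lay within 1 kb of an annotated transcription start site of the gene. The experiment used whole embryos aged 10 to 24 hours from a transgenic line that stably expresses PHDP, a homeodomain transcription factor, fused at its C terminus to green fluorescent protein (GFP). Chromatin was recovered with anti-GFP antibody. There were 3 biological replicates of 1 group, with no heat shock named in the labels, and embryos without the tag were not analysed here. A peak therefore marks recovered chromatin and cannot be told apart from what the antibody would recover without PHDP, and in whole embryos few cells with strong binding cannot be told apart from many cells with weak binding.

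Heat shock proteins are chaperones that hold unfolded proteins in solution or help them to fold. On heating, the heat shock factor Hsf forms trimers and binds heat shock elements, arrays of short inverted repeats, in the promoters of the inducible genes. The paused RNA polymerase that sits at several of these promoters before heating is a classic model of promoter regulation in flies, and GAGA factor helps to keep them open. The small heat shock genes of 3L are also transcribed without heat during development, in part under ecdysone, whereas the cognate genes (Hsc70 and Hsp60A) supply the housekeeping chaperones of the cytosol, the endoplasmic reticulum and the mitochondria.

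Of the 10 genes, 8 had a summit within 1 kb in the list that the authors filtered by irreproducible discovery rate (IDR). This rule rests on how alike peaks rank in replicates, but a single listed peak need not be matched in all 3. Over all protein-coding genes the share with such a summit was 28.9% (4031 of 13945). Hsf and Hsp23 had none. In the list called on the pooled replicates, which goes deeper (30000 peaks against 7092), all 10 genes had a summit within 1 kb, beside 50.6% of all protein-coding genes. All 10 also had a summit within 1 kb in each of the 3 replicate lists, beside 45.5% of all protein-coding genes. The lowest −log10 q value (the deposited significance of a peak) was 0.348 to 0.429 in the pooled and replicate lists. Their low entries are therefore not significant peaks. For Hsf and Hsp23 the strongest summit of each replicate had a −log10 q from 1.75 to 4.34. With an IDR summit were 4 of the 5 inducible genes (Hsp83, Hsp22, Hsp26 and Hsp27 but not Hsp23) and 4 of the 4 constitutive genes (Hsc70-3, Hsc70-4, Hsc70-5 and Hsp60A), so the count did not separate these classes.

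The IDR peaks are the 7092 strongest of the pooled list by the authors' signal, the deposited measure of peak strength, with values from 172 to 6985. Taking the strongest IDR peak of each gene, the signals of the 8 genes ran from 285 to 2006 with a median of 675, beside a median of 359 and quartiles of 235 and 659 over the 4031 genes with an IDR summit. The signal was above the gene median in 6 of the 8, and 4 genes (Hsp27, Hsp83, Hsc70-5 and Hsp26) had a peak among the 1000 strongest IDR peaks. In all 8 genes the strongest summit lay upstream of the nearest start site of the gene, as it did in 80.6% of the genes with an IDR summit. In all 8 it was matched by a summit within 100 bp in every replicate, as were 90.5% of all IDR peaks. The IDR filter itself favours such matches.

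Signals in single replicates are on a lower scale than the pooled and IDR signals and are compared here only within a replicate or with the spread over the 3. The strongest 5000 peaks had a median signal of 141 in replicate 1, 150 in replicate 2 and 115 in replicate 3. Of the 8 matched genes, 6 were highest in replicate 2 and 7 were lowest in replicate 3, the same way as these list medians. The coefficient of variation over replicates was 18.7% to 46.3% for the 8 genes, beside a median of 21.9% over all matched IDR peaks.

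Hsf, the regulator, had no IDR peak. Its strongest pooled summit lay 728 bp upstream of the single annotated start (chr2R:18135164-18135559, dm6), with a signal of 167.0 and rank 7309, just below the lowest IDR signal of 171.7. This summit was only 64 bp upstream of the start of Pcl, a Polycomb group gene that runs the other way, so its assignment to Hsf rests on the 1 kb limit. A weaker pooled summit with a signal of 120.5 lay 196 bp inside Hsf, in its 5′ UTR. The strongest summit near Hsf in each replicate had a signal of 50.8, 81.2 and 37.6 in replicates 1, 2 and 3 (56.6 ± 22.3, SD, n = 3). In replicate 2 this was a summit 157 bp inside the gene, and in replicates 1 and 3 it was the upstream summit near Pcl.

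The small heat shock genes Hsp22, Hsp23, Hsp26 and Hsp27 share a cluster on 3L in which the 4 genes span 12764 bp. They encode small oligomeric chaperones, of which Hsp22 acts in mitochondria and Hsp27 in the nucleus. Hsp27 had the strongest peak of all 10 genes (chr3L:9383708-9384105, summit 9383899, intergenic, 164 bp upstream of its start), with an IDR signal of 2006 and rank 137. Its replicate signals were 646, 822 and 544 (671 ± 141, SD, n = 3), and only 148 of the 4031 genes had a stronger IDR peak. The rank of the peak was 157, 121 and 146 in the 3 replicate lists, so it stayed near the top of each.

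Hsp26 was second in the cluster. Its peak (chr3L:9377417-9377733, summit 9377557, intergenic, 130 bp upstream) had an IDR signal of 878 and rank 700, with replicate signals of 294, 354 and 228 (292 ± 63.0, SD, n = 3). The start of asRNA:CR43481, a non-coding gene on the other strand, lay 603 bp from this summit. Every replicate value of Hsp26 was below every value of Hsp27. Within a replicate the Hsp27 signal was 2.20, 2.32 and 2.39 times that of Hsp26 (2.30 ± 0.0969, SD, n = 3), a ratio that varied far less than the signals themselves.

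Hsp22 had an IDR signal of 473 and rank 1889 (chr3L:9373369-9373665, summit 9373564), with replicate signals of 156, 201 and 120 (159 ± 40.7, SD, n = 3). Its highest replicate was below the lowest of Hsp26. The summit lay 433 bp upstream of the nearest Hsp22 start but inside a longer annotated transcript, in the Hsp22 5′ UTR and the 3′ UTR of CG4456, listed in RefSeq also as Hsp67Bb. It was 633 bp downstream of an inner CG4456 start that is also the outer start of Hsp22, so this peak counts for both genes.

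Hsp23 was the member of the cluster without an IDR peak. The pooled summit 64 bp upstream of its start (chr3L:9381620-9382015) had a signal of 104 and rank 11934. The strongest summits within 1 kb in replicates 1, 2 and 3 had signals of 38.7, 49.1 and 36.8 (41.5 ± 6.65, SD, n = 3) and ranks of 13106, 10545 and 11379. They did not lie at a fixed place: the summit was 40 bp inside the gene in replicate 1, and 201 and 56 bp upstream in replicates 2 and 3. Its neighbour Hsp27, with a start only 2181 bp away, had 16.7, 16.7 and 14.8 times the signal in the same replicates (16.1 ± 1.11, SD, n = 3). Hsp26 had 7.60, 7.20 and 6.19 times the signal of Hsp23 (6.998 ± 0.726, SD, n = 3), and the values of Hsp23 did not overlap those of any of the other 3 small heat shock genes.

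**Figure D1:**
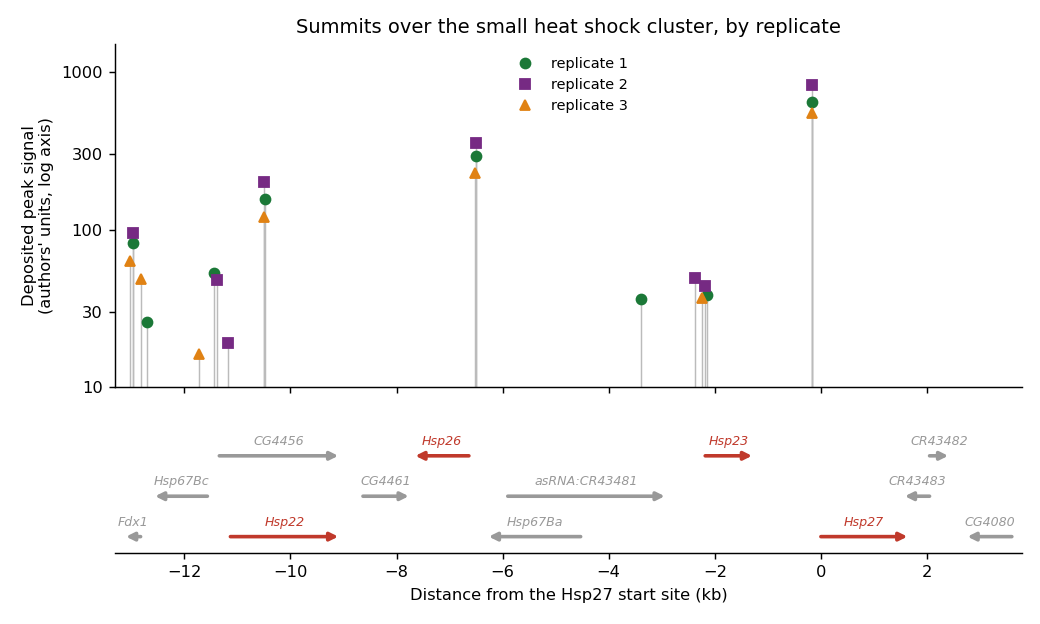
Peak summits of the 3 replicates over the small heat shock cluster on 3L, by distance from the Hsp27 start in kb (x axis) and signal in the authors' units on a log axis (y axis), with gene bodies and their direction below (Fdx1 and CG4080 run past the edges). The summits before Hsp27 (544 to 822) and Hsp26 (228 to 354) stand highest in all 3 replicates, those near Hsp23 (36.8 to 49.1) are low, and no summit lies within 1 kb of the Hsp67Ba start.

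The other genes of the cluster were as uneven. From 2 kb before to 2 kb after the 4 genes (chr3L:9370931-9387694, 16764 bp) there were 4 IDR summits, 7 pooled summits, and 8, 8 and 7 summits in replicates 1, 2 and 3. Besides those of Hsp22, Hsp26 and Hsp27, the IDR list held a summit 90 bp upstream of a start of Fdx1, a neighbouring ferredoxin gene, with a signal of 235 and rank 4871. Hsp67Ba and CG4461, further small heat shock genes between Hsp22 and Hsp23, had no summit within 1 kb in any of the 5 lists. Hsp67Bc had no IDR summit, a pooled summit with a signal of 69.1 and rank 17325, and replicate signals of 52.8, 48.1 and 16.3. The pooled summit lay 156 bp upstream of Hsp67Bc but only 69 bp from a start of CG4456. In replicates 1 and 2 the summit was also nearest to CG4456. The value of replicate 3 is from another summit, in the Hsp67Bc 5′ UTR, with a −log10 q of 0.538. In the plot of summits over the cluster, these differences between neighbours recur in each replicate.

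The sequences under the summits of Hsp27 and Hsp26, the strongest of the cluster, and the 250 bases upstream of Hsp23, the weakest, are printed here. They show where exact matches to heat shock elements lie within these bases. They are read in the direction of each gene from the RefSeq genome of Release 6 (dm6), with capitals for exact 2-unit heat shock elements (GAANNTTC or TTCNNGAA). The summits of Hsp27 and Hsp26 are in the middle of their 121 bases, and the bases of Hsp23 end at its start.
Hsp27 (chr3L:9383839-9383959, plus strand): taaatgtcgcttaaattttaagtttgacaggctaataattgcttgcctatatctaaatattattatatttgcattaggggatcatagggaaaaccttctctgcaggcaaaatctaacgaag
Hsp26 (chr3L:9377497-9377617, minus strand): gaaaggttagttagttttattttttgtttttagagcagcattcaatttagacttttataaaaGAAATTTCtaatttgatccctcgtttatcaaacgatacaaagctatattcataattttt
Hsp23 (chr3L:9381632-9381881, plus strand): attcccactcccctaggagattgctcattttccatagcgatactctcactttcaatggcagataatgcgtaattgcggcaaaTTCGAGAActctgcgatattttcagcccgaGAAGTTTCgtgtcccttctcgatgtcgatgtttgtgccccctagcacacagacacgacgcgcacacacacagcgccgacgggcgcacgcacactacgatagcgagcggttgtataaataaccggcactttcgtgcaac
The strongest summit, that of Hsp27, had no match within this window or within 100 bp either side. In the 250 bases upstream of the start, Hsp27 had 0 matches. Hsp23, with the weakest peak of the 4 genes, had 2 (first bases at -168 and -138 from its start). The 121 bases around the pooled summit of Hsp23 held none, and within 100 bp of that summit the only match was that at -138 from the start. In a wider search, 200 bp either side of the IDR summits, 4 of the 8 genes with an IDR summit held a match, against 3 within 100 bp. Which gene was added was not recorded, so matches farther upstream of Hsp27 are unknown. Hsp26 had 2 upstream of its start, at -216 and -128, and its summit at -130 lay beside the nearer of these. Hsp22, with a peak between those of Hsp26 and Hsp23, had matches at -188 and -87 from its inner start. It had none in the 250 bases upstream of its outer start.

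Hsp83, the cytosolic Hsp90 and the remaining inducible gene, is also abundant without heat, as a chaperone of kinases and steroid receptors. It had the second strongest peak of the 10 genes (chr3L:3192820-3193310, summit 3193121), with an IDR signal of 1762, rank 173 and replicate signals of 577, 692 and 475 (581 ± 109, SD, n = 3). The ranges of Hsp83 and Hsp27 overlapped, but Hsp27 was higher in each replicate, by 1.12, 1.19 and 1.15 times (1.15 ± 0.0342, SD, n = 3). The annotation gives Hsp83 a pair of starts. The summit was 95 bp upstream of the inner start (3193216) and 152 bp downstream of the outer start (3192969), so that it lay within the gene in its 5′ UTR. The start of CG14965, on the other strand, lay 630 bp from this summit. Just outside the 1 kb limit was a further IDR summit, 1057 bp downstream of the inner start in an Hsp83 intron (summit 3194273), with a signal of 1253, rank 347 and replicate signals of 398, 485 and 363. In no replicate did this intronic summit reach the signal of the summit in the 5′ UTR.

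Among the Hsp70 family members, Hsc70-5, the Hsp70 of mitochondria, had the strongest peak (chr2R:14256014-14256493, summit 14256215, 23 bp upstream of its start), with an IDR signal of 1186 and rank 390. Its replicate signals were 408, 496 and 277 (394 ± 110, SD, n = 3), a range that overlapped those of Hsp83 and Hsp26. Hsp83 was 1.41, 1.39 and 1.71 times higher in the same replicates (1.51 ± 0.179, SD, n = 3). The start of CG8531, which runs the other way, lay 278 bp from this summit. A second summit 232 bp upstream of Hsc70-5 had a signal of 240 and rank 4728 and was matched in replicate 1 alone.

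Hsc70-4, the cytosolic cognate Hsp70 that also uncoats clathrin vesicles, had 3 IDR summits within 1 kb, the most of the 10 genes. The strongest, 206 bp upstream of the outermost start (chr3R:15242366-15242570, summit 15242481), had a signal of 332 and rank 3109, with replicate signals of 152, 118 and 53.7 (108 ± 49.97, SD, n = 3). The others lay 1 bp upstream of the same start (signal 227, rank 5069) and in an intron, 411 bp downstream of an inner start (signal 191, rank 6273). Their replicate signals were 51.3, 111 and 63.6 (75.4 ± 31.7, SD, n = 3) at the start and 80.6, 26.1 and 60.2 (55.7 ± 27.5, SD, n = 3) in the intron. In replicate 2 a stronger intronic summit (67.5), 299 bp downstream of the inner start, lay just beyond the 100 bp limit for a match. The low value of 26.1 thus depends on that limit. The 3 summits overlapped in their values, and the order between them changed from replicate to replicate. The start of tefu, which encodes the fly ATM kinase, lay 245 bp from the upstream summit on the other strand.

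Hsc70-3, the Hsp70 of the endoplasmic reticulum (BiP), had the weakest IDR peak of the 8 genes and the one farthest from its start (chrX:11807494-11807707, summit 11807565, 448 bp upstream), with a signal of 285 and rank 3817. The matched replicate signals were 72.1, 120 and 77.3 (89.8 ± 26.4, SD, n = 3). The matched summits lay 97, 91 and 53 bp from the IDR summit, near the 100 bp limit in replicates 1 and 2. In replicate 1 another summit within 1 kb was stronger (90.5), 280 bp upstream.

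Hsp60A, the chaperonin of mitochondria, had an IDR signal of 444 and rank 2082 (chrX:11108168-11108453, summit 11108357, 125 bp upstream), with replicate signals of 187, 153 and 94.9 (145 ± 46.8, SD, n = 3). The summit of replicate 3 lay 98 bp away, so that match too was close to the limit. Hsc70-5, which works in the same organelle, had 2.18, 3.23 and 2.92 times the Hsp60A signal (2.78 ± 0.542, SD, n = 3), without overlap of the values.

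**Figure D2:**
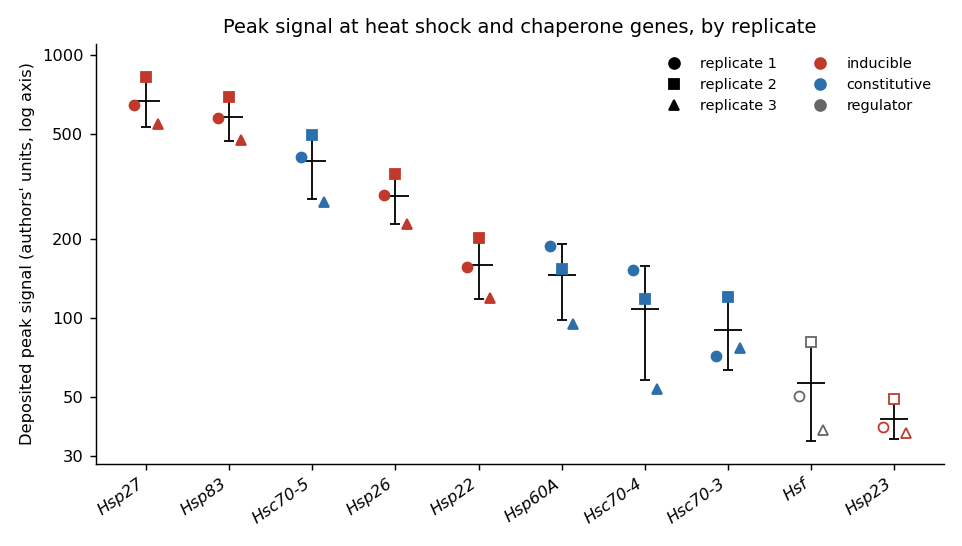
Peak signal of the 10 genes in each of the 3 replicates, in the authors' units on a log axis; filled points are summits matched to the IDR summit, open points (Hsf and Hsp23, without an IDR summit) the strongest summit within 1 kb, bars the mean and error bars the SD. Hsp27 (544 to 822) and Hsp83 (475 to 692) stand highest, and Hsp23 (36.8 to 49.1) stands below every gene but Hsf, whose values it overlaps.

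Over the 10 genes the replicate values fell in steps, as the plot of signal per replicate shows. Hsp27 and Hsp83 were at the top with overlapping ranges, Hsc70-5 overlapped Hsp83 above and Hsp26 below, and Hsp26 stood clear of the genes under it. The ranges of Hsp22, Hsp60A, Hsc70-4 and Hsc70-3 overlapped one another, although Hsp22 and Hsp60A were each higher than both Hsc70-4 and Hsc70-3 in every replicate. The order of Hsp22 and Hsp60A, and that of Hsc70-4 and Hsc70-3, changed between replicates. Hsf overlapped the lower of these and Hsp23.

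The inducible genes reached higher than the constitutive genes, but the classes overlapped. No test was made between them, since these are 9 chosen genes. The median signal over the 5 inducible genes was 294, 354 and 228 in replicates 1, 2 and 3 (292 ± 63.0, SD, n = 3). Hsp26 was the middle gene in each replicate, so these are its values and the SD is its replicate spread. Over the 4 constitutive genes the median was 170, 137 and 86.1 (131 ± 42.1, SD, n = 3). The lowest inducible median was above the highest constitutive median. Within the classes, gene means ran from 41.5 (Hsp23) to 671 (Hsp27) and from 89.8 (Hsc70-3) to 394 (Hsc70-5), a spread that these SDs do not measure. Of the 4 constitutive genes, 3 were below Hsp26 in every replicate, yet Hsc70-5 had the third highest mean of all 10 genes and the inducible Hsp23 the lowest. With Hsp83 counted as constitutive, the medians came to 225, 277 and 174 for the 4 small heat shock genes (225 ± 51.8, SD, n = 3) and 187, 153 and 94.9 for the 5 others (145 ± 46.8, SD, n = 3). The latter are the values of Hsp60A, the middle gene of these 5. The order held in each replicate, but the ranges of the medians then overlapped.

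**Figure D3:**
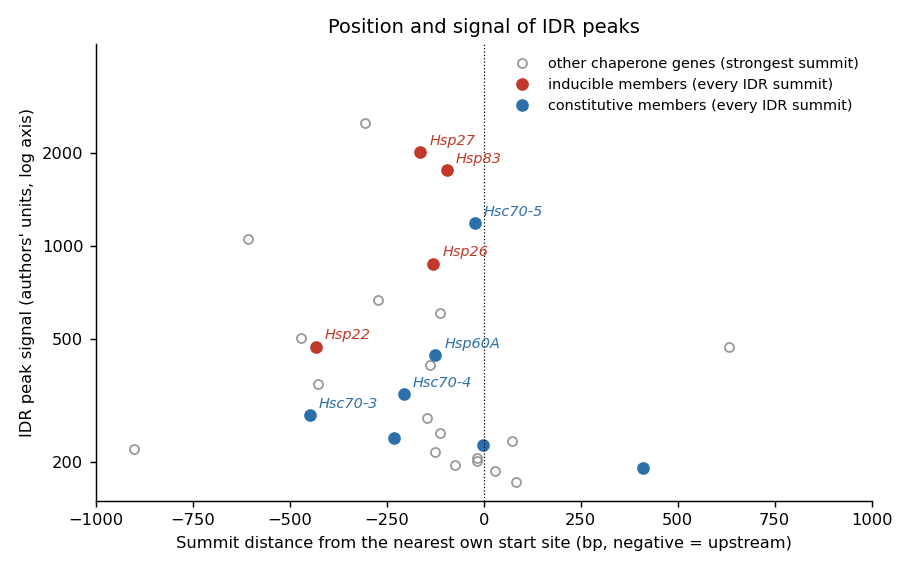
Signal of IDR summits (authors' units, log axis) against distance from the nearest start of the gene itself (bp, negative upstream), for every IDR summit of the inducible and constitutive genes within 1 kb and for the strongest summit of 18 other chaperone genes. The strongest summits of all 8 genes lie upstream of the nearest start, from 23 to 448 bp. Those of Hsp83 and Hsp22 are 152 and 633 bp downstream of the outer start. Within 1 kb no IDR summit of an inducible gene lies downstream of the nearest start. An Hsp83 summit 1057 bp downstream (signal 1253) is outside the plot.

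Over all 4031 genes the strongest IDR summit had a median position of -138 bp, with quartiles of -271 and -39 bp. Hsp83, Hsp26, Hsp27, Hsp60A and Hsc70-4 lay within these quartiles (-95 to -206 bp), Hsc70-5 was nearer to its start, and Hsp22 and Hsc70-3 were farther upstream. The plot of distance and signal places the 4 strongest of these genes within 164 bp of a start.

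The other genes of the folding machinery were read from a list of 55 by role, of which 18 (32.7%) had an IDR summit within 1 kb, beside 28.9% of all protein-coding genes, with a median strongest signal of 263. By role these were 5 of 11 J proteins (partners of Hsp70), 4 of 8 subunits of the cytosolic chaperonin, 4 of 11 co-chaperones and regulators, 2 of 8 other small heat shock proteins, 2 of 11 other Hsp70 family genes, 1 of 4 other Hsp60 and Hsp10 genes and 0 of 2 other Hsp90 genes. The strongest was mrj, a J protein, whose peak 305 bp upstream of a start, in an intron of the gene, had a signal of 2493 and rank 81. Its replicate signals of 851, 1038 and 612 (834 ± 213, SD, n = 3) were higher than those of Hsp27 in each replicate. The starvin gene stv, a BAG-domain partner of Hsc70-4, followed with a signal of 1056 (rank 491) and replicate signals of 429, 327 and 312 (356 ± 63.4, SD, n = 3). CG11267, listed as the Hsp10 that caps Hsp60, had a signal of 606 (rank 1320) and replicate signals of 199, 240 and 174 (204 ± 33.4, SD, n = 3), above those of Hsp60A in each replicate. The remaining genes of the 8 strongest were the J protein genes DnaJ-H (667) and Droj2 (412), the chaperonin subunits CCT3 (502) and CCT8 (359), and CG4456 (473), whose peak is that of Hsp22. Near the limit of the IDR list, CG14207 was just inside with a signal of 172.4, and CCT7 and DnaJ-60 were just outside with pooled signals of 167.0 and 166.7.

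The most strongly heat-inducible genes of the fly, the Hsp70A and Hsp70B copies, had no IDR or pooled summit within 1 kb at any of 6 copies. The only summit in a replicate list was near Hsp70Aa in replicate 2, with a signal of 20.7. These copies are near-identical, so reads from them are hard to place and their values are uncertain. Hsp68, a single-copy inducible Hsp70, had an IDR summit 903 bp upstream with a signal of 221 (rank 5253) and replicate signals of 96.7, 78.0 and 48.7 (74.5 ± 24.2, SD, n = 3). SMC1 also has a start within 1 kb of that summit.

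Short words of known promoter elements were then searched on both strands within 100 bp of the summits and in the promoter windows (250 bases before to 50 after the start). The 2-unit heat shock element occurred at 3 of the 8 IDR summits (Hsp83, Hsp26 and Hsc70-4), beside 10.6% of all 7092 IDR summits. Promoter windows at the outermost start held it in 4 of the 10 genes (Hsp23, Hsp26, Hsc70-3 and Hsc70-4), beside 15.9% of all protein-coding genes. At the start nearest the peak, which differs for Hsp83 and Hsp22, it was 6 of 10. That start was picked by the peak and no share over all genes was computed for it, so this count cannot be set beside 15.9%. The stricter 3-unit form, exact in every unit, occurred at none of the summits or promoter windows of these genes and in 0.268% of all IDR summits, and an exact search misses the imperfect units of many active elements.

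The summit of Hsc70-4 is an example from a constitutive gene: its 121 bases, from the RefSeq genome of Release 6 (dm6), hold a 2-unit element in capitals downstream of the summit, which is the middle base. Hsp60A has none in the same window.
Hsc70-4 (chr3R:15242421-15242541, plus strand): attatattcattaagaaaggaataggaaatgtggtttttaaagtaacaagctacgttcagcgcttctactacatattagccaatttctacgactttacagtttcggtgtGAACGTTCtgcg
Hsp60A (chrX:11108297-11108417, plus strand): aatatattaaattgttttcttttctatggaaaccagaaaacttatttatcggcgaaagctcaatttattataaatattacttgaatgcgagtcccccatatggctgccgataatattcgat
A match to Motif 1 (GGTCACAC, a word of housekeeping promoters) lay in the promoter window of Hsp60A, outside these bases. This was 1 of the 10 genes, beside 7.70% of all protein-coding genes.

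The GAGA word (GAGAG, bound by GAGA factor) occurred at 3 of the 8 summits (Hsp22, Hsp26 and Hsc70-3), beside 21.3% of all IDR summits, and in the promoter windows of 4 of the 10 genes, which are these and Hsp23, beside 29.7%. The promoter window of Hsp26 held 6 matches, some of them overlapping, between -68 and -35. The TATA word (TATAAA) occurred at 4 of the 8 summits, beside 39.3% of all IDR summits, and in the promoter windows of 8 of the 10 genes, all but Hsf and Hsc70-3, beside 45.8% of protein-coding genes. The homeodomain word TAATTA, a core of many homeodomain sites, was found at 2 of the 8 summits (Hsp22 and Hsc70-4), beside 18.8% of all IDR summits, and not within 100 bp of the strong summits of Hsp27, Hsp83, Hsc70-5 and Hsp26. The DNA replication-related element (DRE, TATCGATA), a housekeeping word, was at none of the 8 summits, beside 3.12%. The GC content within 100 bp of the summit ran from 25.4% (Hsc70-5) to 48.8% (Hsc70-3) over the 8 genes, with a median of 35.1% beside 33.8% over all IDR summits, and was 52.7% at the pooled summit of Hsp23. These matches describe letters in the window, and binding at them was not tested.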

How the data were processed

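Peaks of an anti-GFP ChIP-seq of embryos with GFP-tagged PHDP were analysed in 3 biological replicates (per the labels) of 1 group. Per the deposited notes, the authors called peaks for each replicate against 1 shared control, called a pooled list from the 3 alignments, and derived the IDR list from these (dm6 coordinates). The aligner and the peak-calling program are not given in the sources here. The authors deposited a signal and a −log10 q value for each peak. Signals were compared within a list only. The −log10 q value reaches a ceiling of 4.24 in all IDR peaks and ranked nothing. The replicate and pooled lists hold exactly 30000 peaks each, so peak numbers are not compared, and the depth behind them is unknown.

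Summits were placed 1-based against start sites of Ensembl release 115 (BDGP6.54) for protein-coding genes. A member had a peak where a summit lay within 1 kb of any of its starts, and replicates were matched within 100 bp. Errors are SDs over replicates. Promoter windows (250 bases before to 50 after a start) and summit windows were cut from the RefSeq genome of the same assembly, and words were matched exactly on both strands.

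With 1 group, no test between samples was made. The genes and lists were chosen with earlier results of these data known. All 10 members are named. Of 55 other chaperone genes, all matched by symbol or RefSeq synonym, the text names the 8 with the strongest IDR peaks, the Hsp67B genes, Hsp68 and the Hsp70A and Hsp70B copies, and neighbours within 1 kb of a member's peak; CG4461, CG14207, CCT7, DnaJ-60, Fdx1 and SMC1 were added after their values were seen. Alternatives were other distances, lists, matching limits and windows, and leaving out each replicate. Calculations were tested on simulated data, recovering 200 of 200 planted summits, 200 of 200 matches and 14 of 14 words. Python 3.11.15, numpy 2.4.6, pandas 2.3.3 and matplotlib 3.10.9 were used.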

Additional observations from a re-analysis of the deposited data

How the results depend on the processing

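Of 80 values of the main counts and signals under alternatives, 73 kept within the limits set for a change and 7 moved. Counts were kept within a fixed fold of the main value, and signals within the SD over replicates. These limits are wide for small counts, so a change from 8 genes to 6 or 10 counted as kept. Reversals were not scored. The count of 8 genes with a peak became 6 with a limit of 200 bp (without Hsp22 and Hsc70-3), 7 when IDR peaks under the median signal were left out (without Hsc70-3) and 10 with the pooled list. All protein-coding genes with a peak numbered 2543 within 200 bp, 7055 with the pooled list and 2400 without peaks under the median, against 4031. The other chaperone genes numbered 11, 32 and 8 in the same order, against 18. The cluster held 7 summits in the pooled list, against 4 in the IDR list. For the counts, leaving out each replicate kept only IDR peaks matched among the strongest peaks of both others. This gave 8 to 8 genes with a peak, 4 to 4 inducible and 4 to 4 constitutive genes, 3008 to 3172 of all genes, 12 to 13 other chaperone genes and 3 to 4 summits in the cluster. The median signal over the 8 genes, averaged over the remaining replicates without that filter, was 207 to 259. Matching within 50 bp kept 6 of the 8 genes in all replicates. Among 77 values of single genes and words, 6 moved, all of them words: GAGA and TAATTA were each at 1 of the 8 summits within 50 bp, TATA at 7 and Motif 1 at 1 within 200 bp (shares over all summits were not computed for these windows), and in promoter-proximal summits the shares with DRE and Motif 1 were 6.48% and 4.48%. Depth limits could not be set from peak lists.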
